A study of Mus musculus with 8 samples.

Results

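The genes described here are those of the cytosolic ribosomal proteins, the structural proteins of the small (Rps) and large (Rpl) ribosomal subunits. They were chosen by symbol alone. A symbol of the form Rps or Rpl with a number and at most an a, x, y or l and a further digit was taken, together with Rplp0, Rplp1, Rplp2 and Rpsa, and pseudogenes named with -ps were left out. The rule found 88 of 33641 symbols, 36 of the small and 52 of the large subunit, each with an entry in the GENCODE vM21 annotation of GRCm38. Of these, 83 are annotated as protein coding and 5 as processed pseudogenes (Rps12l1, Rpl6l, Rps3a2, Rps3a3 and Rps4l, the last of them transcribed).

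The libraries came from tumor endothelial cells (TECs) of C57Bl/6 mice that carried tumors of Lewis lung carcinoma (LLC) cells, a mouse lung cancer line, in the left lung lobe. In endFoxf1+/- mice, which were heterozygous for the conditional Foxf1 fl allele and carried Pdgfb-iCreER, tamoxifen given at 6 to 8 weeks of age removed exon 1 of 1 Foxf1 allele where the Pdgfb promoter is active, that is mainly in endothelium. The control littermates were given tamoxifen too and carried either the Foxf1 fl/+ allele or the Cre transgene alone. Which of these each library had is not given in the sources used here. Tumors were microdissected on day 21. Total RNA of the CD45-CD31+ fraction, isolated by FACS, was sequenced for 4 control libraries (C1 to C4) and 4 endFoxf1+/- libraries (H1 to H4), numbered in the order of their labels. The values are TPM (transcript abundances), which are divided by transcript length and scaled to the same total in every library, so that they are shares of the RNA measured and the read depth is unknown. In such shares, fewer cells of a type and less RNA per cell cannot be told apart.

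Each ribosome holds 1 copy of most of these proteins, and their mRNAs are among the most abundant of any growing cell. Many of them begin with a run of pyrimidines (C and T), the 5′ terminal oligopyrimidine tract, through which mTOR signalling controls their translation. A few have paralogs with narrow expression. Rpl3l is known from heart and skeletal muscle, and Rpl10l and Rpl39l from the male germ line, where Rpl10l stands in for the X-linked Rpl10. Free Rpl5, Rpl11 and Rpl23 can bind MDM2 and so stabilise p53, and Rps6 is the classic substrate of S6 kinase.

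The start of several members is shown because the pyrimidine tract is the sequence they are known for and the restricted paralogs can be set beside it. The RefSeq promoter table for GRCm38.p6 held 75 promoters of 63 of the 88 members. Each window below runs from 15 bases before the annotated start to the 15th base of the transcript, on the gene's own strand, with its longest C or T run in capitals.
Rps27, chr3:90213634-90213663, minus strand: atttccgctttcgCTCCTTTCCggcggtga
Rps18, chr17:33955651-33955680, minus strand: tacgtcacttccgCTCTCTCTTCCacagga
Rplp2, chr7:141447636-141447665, plus strand: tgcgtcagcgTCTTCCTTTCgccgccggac
Rps6, chr4:86857353-86857382, minus strand: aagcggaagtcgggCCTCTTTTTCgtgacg
Rpl22l1, chr3:28805493-28805522, plus strand: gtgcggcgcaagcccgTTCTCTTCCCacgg
Rps27l, chr9:66946071-66946100, plus strand: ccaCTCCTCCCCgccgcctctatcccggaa
Rpl3l, chr17:24727811-24727840, plus strand: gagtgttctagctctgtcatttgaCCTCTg
Rpl10l, chr12:66284387-66284416, minus strand: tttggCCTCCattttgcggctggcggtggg
Rpl39l, chr16:10170213-10170242, plus strand: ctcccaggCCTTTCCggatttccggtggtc

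The longest run was 9 bases in Rps27, 11 in Rps18 and 10 in Rplp2, Rps6 and Rpl22l1, and 5 in Rpl3l and Rpl10l and 7 in Rpl39l. The marked run lies wholly before the annotated start in Rps27l, Rpl10l and Rpl39l, so it is not part of the annotated transcript there. Rps27l and Rpl3l each have a second promoter in the table, not shown, whose longest run is 4 bases. Short runs were not particular to these paralogs, since Rpl10, the parent of Rpl10l, and Rpl11 had 3. A run of at least 8 lay in the window of 28 of the 75 member promoters (37.3%) and of 12.0% of all 32851 promoters in the table, and one of at least 10 in 26.7% and 5.34%. Over the whole 300 bases, from 250 before to 50 after the start, the ETS-type word CGGAAGT or its reverse complement ACTTCCG was present in 22 member promoters (29.3%) and in 6.42% of all promoters. The YY1-type word CCATCTT (or AAGATGG) was in 16.0% of member promoters and 6.34% of all, and the E-box CACGTG in 10.7% and 7.15%. The forkhead-type word TAAACA (or TGTTTA) was in 6 member promoters (8.0%) and in 13.4% of all, and TATAAA (or TTTATA) in 9.33% and 13.6%. Overlaps between words were not removed, some genes have several promoters, and a match describes these letters only.

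Before the comparison, 2 libraries have to be named. In H3 the 20 endothelial markers had a geometric mean of 23.4 TPM, 5.49% of the control mean, while the other libraries had 358 to 455 TPM apart from H4 with 240 TPM. All 20 were lower in H3 than in every control library (Cdh5, 94.9 TPM against 1419 to 1813 TPM), although none of them was absent. The genes of the sort markers went against the gate in H3. Pecam1, which encodes CD31, was at 77.5 TPM there and at 1061 to 1505 TPM in controls, and Ptprc, which encodes CD45, at 91.2 TPM and 2.94 to 9.13 TPM. In the same library all 14 myeloid markers were above every control library, with a geometric mean of 157 TPM against 6.39 to 14.9 TPM in controls, and the 15 proliferation genes had 33.6 TPM against 8.68 to 9.81 TPM. In geometric mean, H1, H2 and H4 were also above every control library in both. They had 19.9, 23.6 and 15.2 TPM of myeloid markers and 15.7, 14.2 and 11.1 TPM of proliferation genes. For H4 this did not hold gene by gene. There 3 of the 14 myeloid markers were above every control library and 1 below. Of the 15 proliferation genes 6 were above and 4 below in H4 (24.2% and 49.4% of all genes tested). H4 had the largest share of Gm20594, the most abundant symbol in the files, with 21.8% of its TPM against 5.11% to 11.3% in controls. Foxf1, the targeted gene, was at 213, 285, 296 and 331 TPM in C1 to C4 and at 177, 203, 14.04 and 105 TPM in H1 to H4, so the groups did not overlap (p = 0.0286 in a two-sided exact permutation test, the lowest value that 4 against 4 libraries allow). Fzd4, a Wnt and Norrin receptor, was at 77.0 to 100 TPM in controls and at 86.6, 94.5, 6.68 and 66.8 TPM in H1 to H4. No 2 of the 8 libraries were identical. How far the samples of a group were independent is not known here beyond their separate labels. The p-values set the group difference against the spread between these samples.

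Ribosomal protein mRNAs were a large and steady share of the TPM of control TECs. Summed over the 88 members they took 11.3%, 10.9%, 10.2% and 10.1% of C1 to C4, a mean of 10.6% ± 0.569 (SD, n = 4). In endFoxf1+/- libraries they took 10.8% in H1, 11.3% in H2, 30.5% in H3 and 6.80% in H4, a mean of 14.8% ± 10.6 (SD, n = 4). H1 and H2 lay within the range of the controls, H3 far above it and H4 below it. The difference of 4.23 percentage points between the group means was smaller than the SD of the endFoxf1+/- group and became -0.976 percentage points without H3. As a share of what remains when Gm20594 and the mitochondrially encoded genes are set aside, the controls had 12.4% ± 0.542 (SD, n = 4), and H1 to H4 had 12.3%, 12.9%, 34.5% and 9.76%.

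**Figure D1:**
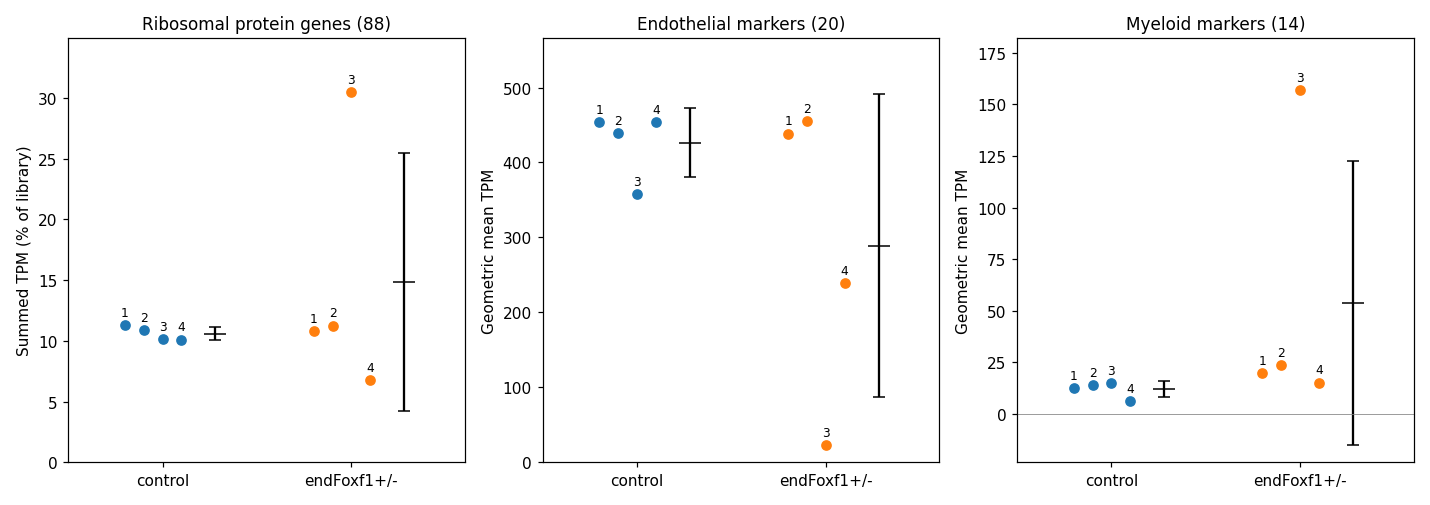
Summed TPM of the 88 ribosomal protein genes in percent of the library (left), and geometric mean TPM of 20 endothelial (middle) and 14 myeloid markers (right), for each control and endFoxf1+/- library, numbered 1 to 4, with the group mean ± SD beside the points. Library 3 of the endFoxf1+/- group has 30.5% ribosomal protein TPM, 23.4 TPM of endothelial and 157 TPM of myeloid markers.

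The subunits moved together. The summed TPM of the small subunit was 0.814, 0.809, 0.765 and 0.824 of that of the large subunit in C1 to C4 and 0.789, 0.774, 0.780 and 0.779 in H1 to H4. The order of the members was also kept among C1 to C4, H1 and H2, with Spearman correlations of their TPM of 0.953 to 0.993. These were taken across 82 members, which are not independent and share a library. H3 correlated with these 6 libraries at 0.925 to 0.957, H4 less closely at 0.801 to 0.844, and H3 with H4 at 0.773.

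Of the 88 members, 82 passed the filter of 1 TPM in at least 4 libraries and entered limma's fit on log2(TPM + 1). The 6 that did not were Rpl10l, Rpl3l, Rpl39l, Rpl6l, Rps3a2 and Rps3a3. Among the 82, control means ran from 18.8 TPM (Rpl7l1) to 5493 TPM (Rps27) with a median of 989 TPM, against a median of 14.6 TPM over the 14964 genes tested. Of the members, 34 were among the 100 genes of highest control mean. Control libraries differed little in these genes, with a median coefficient of variation of 8.08%, against 17.6% over all genes tested. The spread was not compared with that of genes of like level.

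Between the groups, none of the 82 members passed an adjusted p of 0.05 (limma, Benjamini-Hochberg over all genes tested), and neither did any other gene (0% of 14964). Nor did any member have an unadjusted p under 0.05, where 2.82% of all genes did with higher and 2.77% with lower TPM in endFoxf1+/- libraries. Adjusted p-values of the members ranged from 0.790 to 0.999. The median log2 fold change over the 82 was 0.28, against -0.17 over all genes tested, and 72 of the 82 had a positive value. The sign depended on H3 as long as H4 was kept. Without H3 the median was -0.13, against 0.01 over all genes, with 22 of 82 positive, without H4 it was 0.54, and without both it was 0.12 with 59 positive. With array weights, which gave H3 and H4 little weight, 6 members were higher at an unadjusted p under 0.05 (7.32%, where 15.2% of all genes were) and 1 lower (1.22%, where 3.95% were), and none passed adjustment, where 0.989% of all genes did. The 34 tested small subunit genes had a median of 0.28 and the 48 large subunit genes 0.26. All 82 intervals of the log2 fold change (95%) included 0, with a median half-width of 0.98.

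The libraries taken singly show what lies behind the group values. In H3, 81 of 82 members were above every control library, where 16.8% of all genes tested were, and 1 was below, Rps4l (68.2% of all genes). The members' median was 1.46 above the control mean on the log2 scale, 2.75-fold, while the median of all genes was -0.71. In H4, 66 members were below every control library (49.4% of all genes) and 9 above (24.2% of all genes), with a member median of -0.58 and -0.25 over all genes. In H1, 34 members were above every control library (35.8% of all genes) and 18 below (10.4% of all genes), and the member median was 0.10. In H2 they were 36 (34.9% of all genes) and 1 (12.5% of all genes), with a median of 0.11. The medians of all genes in H1 and H2 were 0.15 and 0.13, so the members' medians there lay slightly under them. The part that the cell markers of H3 and H4 have in these values was not tested.

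**Figure D2:**
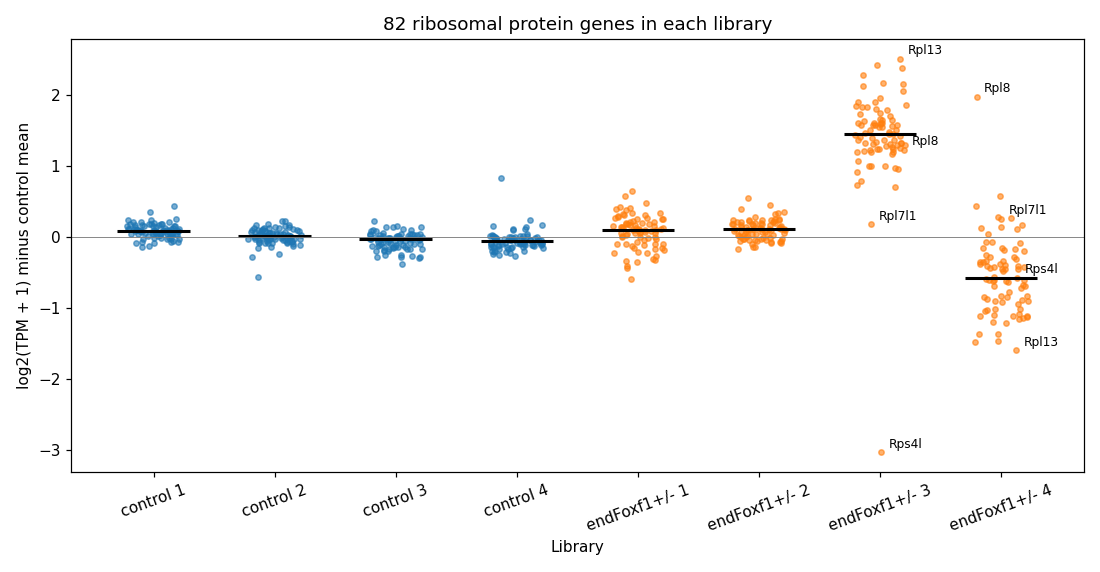
Each point is 1 of the 82 tested ribosomal protein genes in 1 library, as log2(TPM + 1) minus the mean of the 4 control libraries, and black bars are medians. The medians of control libraries and of endFoxf1+/- 1 and 2 lie between -0.06 and 0.11, that of endFoxf1+/- 3 at 1.46 and that of endFoxf1+/- 4 at -0.58, with Rps4l and Rpl8 far from the others in 1 library each.

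The groups did not overlap for 4 members, all higher in endFoxf1+/- libraries, which is 4.88% of the 82 where 2.73% of all genes tested did so in that direction. No member was lower without overlap (2.31% of all genes). Rpl26, at the exit of the peptide tunnel and known to bind the p53 mRNA, was at 1041, 1007, 958 and 895 TPM in C1 to C4 and at 1043, 1114, 2432 and 1078 TPM in H1 to H4. Its lowest endFoxf1+/- value was only just above its highest control value (log2 fold change 0.44 ± 0.34 SE, adjusted p = 0.797). Rpl29, at 1053, 1023, 1029 and 995 TPM in controls, was at 1172, 1124, 3345 and 1242 TPM (0.58 ± 0.39 SE, adjusted p = 0.790). Rps26, of the mRNA exit channel, was at 572, 579, 514 and 563 TPM in controls and 597, 619, 2449 and 602 TPM in endFoxf1+/- libraries (0.63 ± 0.46 SE, adjusted p = 0.790). Rpl12, part of the base of the stalk, was at 34.5, 35.5, 32.9 and 32.4 TPM against 39.1, 35.8, 144 and 50.9 TPM (0.73 ± 0.40 SE, adjusted p = 0.790). H3 set most of the mean difference in each of the 4.

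The largest positive log2 fold changes belonged to Rpl8, Rps18, Rpl12, Rps2 and Rps7. Rpl8 (chr15:76904078-76906314, plus strand, 6 exons), a large subunit protein near the peptidyl transferase centre, was at 1068, 869, 837 and 931 TPM in C1 to C4 and at 1108, 943, 2166 and 3640 TPM in H1 to H4. It was the only member with its highest value in H4, 3.93-fold its control mean, in a library where the members' median was under the controls (log2 fold change 0.88 ± 0.44 SE, adjusted p = 0.790). Rps18, a protein of the small subunit head, also varied among controls, with 1949, 1182, 1188.5 and 1562 TPM in controls and 2263, 1964, 7544 and 1143 TPM in endFoxf1+/- libraries. Rps2, at the entry of the mRNA channel, was at 894 to 1060 TPM in controls and 1409, 1189, 4592 and 720 TPM in H1 to H4, and Rps7 at 397 to 544 TPM and 528, 454, 2508 and 478 TPM. Rps18, Rps2 and Rps7, together with Rpl13, stood furthest above their control means in H3. Rpl13 was at 2256 to 2771 TPM in controls, at 2869 and 2868 TPM in H1 and H2, at 14164 TPM in H3 (5.71-fold its control mean) and at 817 TPM in H4, the lowest ratio of any member there.

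Of the 10 members with negative values, the largest belonged to Rps4l, Rps29, Rps27, Rplp2 and Rpl37a. Rps29, a zinc-binding protein of the small subunit, was at 5527, 5387, 4139 and 4871 TPM in controls and 3671, 4499, 9592 and 2320 TPM in endFoxf1+/- libraries (log2 fold change -0.18 ± 0.50 SE, adjusted p = 0.924). Rps27 had 4971 to 6197 TPM in controls and 4138, 4870, 10403 and 2929 TPM in H1 to H4 (-0.14 ± 0.48 SE, adjusted p = 0.941). Both were below every control library in H1 and H4 and above all of them in H3, and in H2 Rps27 was below the controls and Rps29 within their range. Rpl37a was at 1768 to 2055 TPM in controls and 1664, 1962, 4601 and 755 TPM in endFoxf1+/- libraries. Scaling by the median ratio, which moved the median of all genes by 0.16 on the log2 scale, gave positive values for Rps29, Rps27, Rplp2 and Rpl37a (0.02 to 0.12). When each library was centred on the median of the 82 members, an alternative chosen after seeing the data, Rps29 (-0.54, unadjusted p = 0.0397) and Rps27 (-0.50, unadjusted p = 0.0457) were the 2 members with lower values at an unadjusted p under 0.05 (1.89% of all genes), no member was higher (0.608% of all genes), and no gene passed adjustment (0%).

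The stalk proteins recruit elongation factors to the large subunit, and their 3 genes had medians of 1.85 in H3 and -1.01 in H4 on the log2 scale, beside 1.46 and -0.58 for all members. Rplp0, the stalk base, was at 459 to 560 TPM in controls and 549, 505.2, 1781 and 437 TPM in H1 to H4. Rplp1 was at 2454 to 2921 TPM and at 2805, 3196, 9710 and 1337 TPM, and Rplp2 at 2426 to 2784 TPM and at 2334, 2553, 6358 and 944 TPM. Like 81 of the 82 members they were above the controls in H3, and like 66 of the 82 below them in H4. In H1 Rplp2 was below every control library and in H2 Rplp1 was above every one, and the log2 fold changes were 0.48, 0.28 and -0.09.

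Rpl5, Rpl11 and Rpl23, which can bind MDM2, had unlike levels per length. Rpl5, which carries the 5S rRNA with Rpl11, was among the lowest members, at 60.0, 42.5, 49.5 and 51.4 TPM in C1 to C4 and 68.3, 64.3, 102 and 47.6 TPM in H1 to H4. Rpl11 was at 846 to 929 TPM in controls and 992, 916, 1433 and 404 TPM in endFoxf1+/- libraries. Rpl23 was at 769 to 991 TPM and 1082, 950, 2398 and 574 TPM. In H3, Rpl11 was at 1.64-fold its control mean, the smallest ratio of the members after Rps4l and Rpl7l1. The 15 p53 targets and regulators had medians of 0.28, 0.15, -0.20 and -0.08 in H1 to H4 on the log2 scale, against 0.15, 0.13, -0.71 and -0.25 over all genes tested, and Cdkn1a, the cell cycle inhibitor p21, was at 679 to 1975 TPM in controls and 832 to 1385 TPM in endFoxf1+/- libraries. At an unadjusted p under 0.05, 1 of the 15 was higher and 1 lower (2.82% and 2.77% of all genes tested). Bbc3, the pro-apoptotic gene Puma, was at 24.6 to 30.3 TPM in controls and 14.6, 23.3, 5.07 and 5.26 TPM in H1 to H4, without overlap, and Gtse1 at 0.725 to 1.67 TPM and 2.72, 2.12, 7.80 and 2.80 TPM (adjusted p = 0.790 for both).

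Among other well-known members, Rps6 was at 1488, 1170, 1092 and 1264 TPM in controls and 1569, 1397, 2883 and 823 TPM in H1 to H4. Rpsa, which besides its place on the small subunit is known as a laminin receptor, was at 646 to 713 TPM and at 893, 740, 2631 and 508.3 TPM. Rps19, whose human counterpart is mutated in Diamond-Blackfan anemia, was at 705 to 779 TPM in controls, at 691 and 706 TPM in H1 and H2, at 1914 TPM in H3 and at 903 TPM in H4, above the controls. Rps27a, made as a fusion with ubiquitin, was at 695 to 820 TPM and at 798, 722, 1775 and 590 TPM. The groups overlapped for each of these members. Rpl27a varied least among controls (349 to 366 TPM) and was at 391, 383, 856 and 184 TPM in H1 to H4. Rpl41, the shortest at 75 coding bases, was at 4942 to 5501 TPM and 4477, 4961, 12950 and 2383 TPM, and Rpl27, among the lowest, at 152 to 177 TPM and 175, 194, 385 and 92.6 TPM. The other 47 tested members had control means of 272 to 2819 TPM, log2 fold changes of -0.06 to 0.64 (44 positive, 5 positive without H3), and were at 1.71 to 4.49 times their control mean in H3 and 0.357 to 1.36 times in H4.

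The paralogs with tissue-restricted expression were at no more than 1.71 TPM in any of the 8 libraries, H3 with its low endothelial markers included. Rpl3l (chr17:24727820-24736143, plus strand, 10 exons) was at 0.247, 0.486, 0.894 and 0 TPM in C1 to C4 and 0.843, 1.71, 0.207 and 0 TPM in H1 to H4, while its parent Rpl3 was at 649 to 699 TPM in controls and 849, 772, 2103 and 562 TPM in endFoxf1+/- libraries. Rpl10l (chr12:66283379-66284401, minus strand, 1 exon) was listed at 0 in 7 libraries and at 0.0919 TPM in H1, beside an Rpl10 of 1754 to 2268 TPM in controls and 2434, 2592, 6324 and 1766 TPM in H1 to H4. Rpl39l (chr16:10170226-10174911, plus strand, 3 exons) was at 0.426 TPM in C1, 0.685 TPM in H3 and 0 in the other 6 libraries, beside 1080 to 1200 TPM of Rpl39 in controls and 1148, 1242, 3869 and 776 TPM in H1 to H4. With no read numbers, a 0 gives no limit of detection. Of 13 striated muscle markers 5 passed the filter, with 7.14 to 19.2 TPM summed over the list in each library, and of 11 male germ cell markers 1 did, with 1.38 to 4.27 TPM.

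The other paralogs were expressed. Rpl22l1 (chr3:28805436-28807424, plus strand, 4 exons), known to regulate RNA splicing in development and to be held down by Rpl22, was at 272, 304, 306 and 230 TPM in C1 to C4 and 279, 327, 986 and 310 TPM in H1 to H4, against 1119 to 1426 TPM of Rpl22 in controls and 1294, 1382, 3498 and 580 TPM in endFoxf1+/- libraries. In H4 it was above every control library while Rpl22 was below. Rps27l, which p53 is known to induce, was at 305 to 333 TPM in controls and 348, 307, 533 and 262 TPM in H1 to H4, and in H3 stood at 1.67-fold its control mean, less than most members. Rpl7l1, a nucleolar relative of Rpl7 that takes part in ribosome assembly and is not a usual ribosome component, was at 21.2, 17.7, 15.6 and 20.8 TPM in controls and 23.9, 18.8, 21.3 and 22.6 TPM in H1 to H4. It was 1.13-fold its control mean in H3, where its parent Rpl7 was 2.24-fold (549 to 672 TPM in controls and 1329 TPM in H3). Its log2 fold change was 0.20 (95% interval -0.28 to 0.67, adjusted p = 0.814).

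Rps4l went its own way. This symbol (chr6:148354656-148355598, plus strand, 1 exon, a transcribed processed pseudogene in GENCODE) was at 41.6, 27.7, 33.2 and 74.3 TPM in C1 to C4 and at 57.6, 60.6, 4.16 and 27.3 TPM in H1 to H4. It varied most of all members among the controls (SD 0.61 on the log2 scale), and in H3 it was at 0.0942 of its control mean while Rps4x, the X-linked small subunit gene, was at 3.05-fold (1496 to 1758 TPM in controls and 2131, 1904, 4979 and 881 TPM in H1 to H4). The groups overlapped, and its log2 fold change of -0.64 ± 0.73 SE (adjusted p = 0.820) became 0.15 without H3. Only 18.0% of the 50-base words of its transcript occurred in transcripts of another gene.

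**Figure D3:**
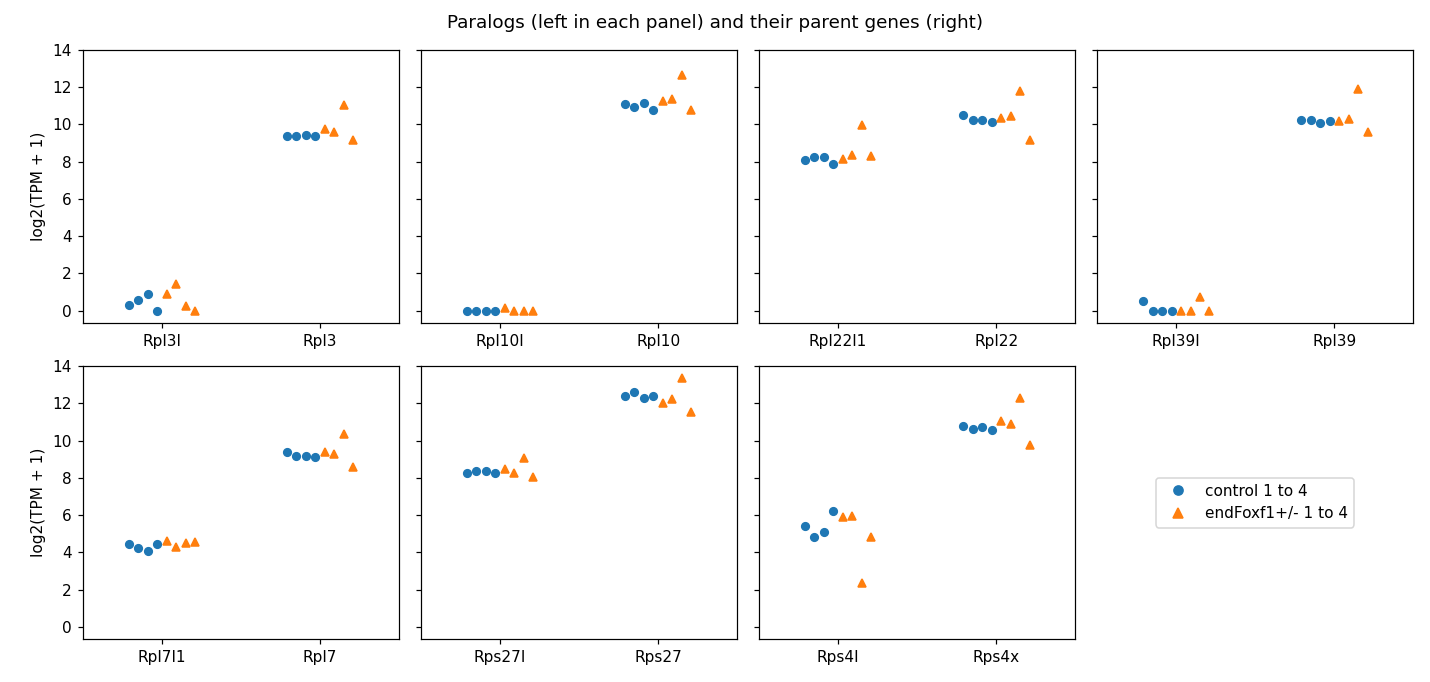
log2(TPM + 1) of 7 ribosomal protein paralogs (left in each panel) and of their parent genes (right), with control libraries 1 to 4 as circles and endFoxf1+/- libraries 1 to 4 as triangles from left to right. Rpl3l, Rpl10l and Rpl39l lie far under their parents, at no more than 1.71 TPM in any of the 8 libraries, and Rps4l is lowest in endFoxf1+/- 3, where its parent is highest.

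The 3 remaining members under the filter are processed pseudogenes in GENCODE. Rpl6l was at 0 to 0.703 TPM, Rps3a2 at 0.177 to 1.25 TPM and Rps3a3 at 0 to 0.681 TPM over the 8 libraries. Sequence shared with other genes bears on all such values, since reads in it can be given to either copy. Of each member's 50-base words, a median of 55.5% occurred in a transcript of another gene in GENCODE, and 52 of 88 members shared at least 50%. Rps27 shared 98.6% (with Rps27rt among others) and Rps18 86.7%, but Rpl8 7.86% and Rpl3l and Rpl39l 0%. The low members Rpl5 and Rpl12 shared 48.5% and 49.0%, so part of their reads can be given to other genes. The 278 rows of -ps pseudogenes summed to 0.385% of TPM in H4, 1.41% in H3 and 0.491% to 0.636% in the other libraries, and Rpl31-ps8 (1225 to 1696 TPM in controls) and Rps23-ps1 (1126 to 1639 TPM) were listed at the level of ordinary members.

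In H1 and H2, and with the opposite sign in control library C2, the shift of the members went with their coding length. Across the 80 protein coding members tested, the log2 difference from the controls had a Spearman correlation with coding length of 0.680 in H1 and 0.415 in H2, and of 0.171 and 0.202 in H3 and H4. Each control library set against the other 3 gave 0.358, -0.664, 0.332 and -0.130 for C1 to C4, so control libraries differed in the same respect. With transcript length the correlation was 0.422 in H1, 0.247 in H2 and -0.390 in C2. These are descriptions over genes that share a library. In H1 the 40 shorter members had a median of -0.06 and the 40 longer ones 0.19. When H3 and H4 were both left out, 6 members had a higher value at an unadjusted p under 0.05 (7.32%, where 9.94% of all genes did), namely Rps2, Rpl10a, Rpl5, Rpl3, Rps18 and Rps4x, with log2 fold changes of 0.27 to 0.55. Rpl10a is named here after its value was seen. None was lower (2.28% of all genes), none passed adjustment (lowest adjusted p = 0.292) and 2 other genes did (0.0137%). The median of the 82 in this comparison was 0.12, against 0.14 over all genes.

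**Figure D4:**
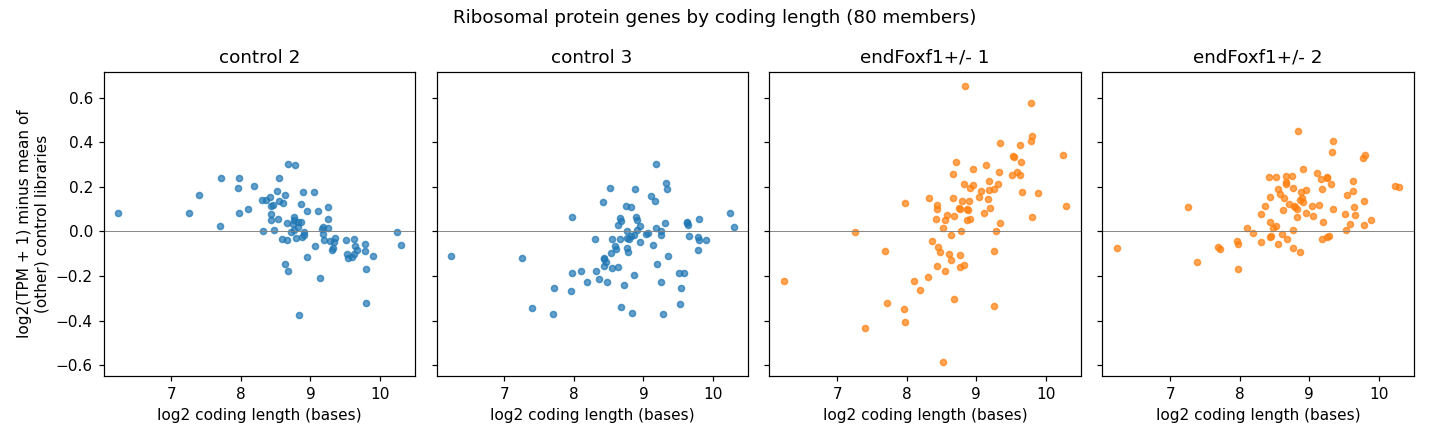
log2(TPM + 1) of the 80 protein coding members tested, minus the mean of the control libraries (for a control library, of the other 3), against log2 of the coding length in bases, in control 2, control 3, endFoxf1+/- 1 and endFoxf1+/- 2. The points slope down in control 2 (Spearman -0.664) and up in endFoxf1+/- 1 (0.680).

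Genes that work with the members were counted from lists written out by hand. The list of 4 ribosomal protein genes outside the symbol rule (Fau, Rack1, Rpl36al and Rps27rt) had medians of 1.41 in H3 and -0.69 in H4, beside 1.46 and -0.58 for the members. Fau, a ubiquitin-like fusion of Rps30, was at 705 to 811 TPM in controls and 634, 756, 2191 and 467 TPM in H1 to H4. Of 37 translation factors, 3 were higher and 0 lower at an unadjusted p under 0.05 (2.82% and 2.77% of all genes tested), their median log2 fold change was 0.21 (0.13 without H3), and their median in H3 was 0.67, under that of the members. Eef1a1, the elongation factor that brings aminoacyl-tRNA, was at 2203 to 2844 TPM in controls and 2796, 2415, 4886 and 2876 TPM in H1 to H4. Pabpc1, the poly(A) binding protein, was at 428 to 548 TPM and 623, 584, 2134 and 824 TPM, without overlap (log2 fold change 0.88, adjusted p = 0.790).

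Of 63 ribosome biogenesis factors, 3 were higher and 0 lower at an unadjusted p under 0.05 (2.82% and 2.77% of all genes tested). Their median was 0.18 between the groups (0.11 without H3), 0.28 in H3 and -0.11 in H4. Npm1, a nucleolar chaperone, was at 307 to 384 TPM in controls and 534, 427, 1780 and 378 TPM in H1 to H4, and Ncl, nucleolin, at 162 to 213 TPM and 187, 181, 412 and 162 TPM. The 78 genes of the mitochondrial ribosome, whose proteins serve translation in that organelle, had 1 higher and 1 lower at an unadjusted p under 0.05 (2.82% and 2.77% of all genes tested), with a median of -0.08 (0.07 without H4 and 0.12 without H3 and H4), and of 0.05 in H3, where the cytosolic members had 1.46. Mrpl52 was at 313 to 359 TPM in controls and 394, 392, 543 and 296 TPM in H1 to H4, and Mrps21 at 312 to 361 TPM and 308, 329, 333 and 256 TPM. Of the 23 growth control genes tested none had an unadjusted p under 0.05. Their median in H3 was -0.64, and Myc, a regulator of ribosome synthesis, was at 19.3 to 29.2 TPM in controls and 33.0, 28.3, 266 and 42.7 TPM in H1 to H4 (log2 fold change 1.26, adjusted p = 0.790). No gene of any of these lists passed adjustment.

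**Figure D5:**
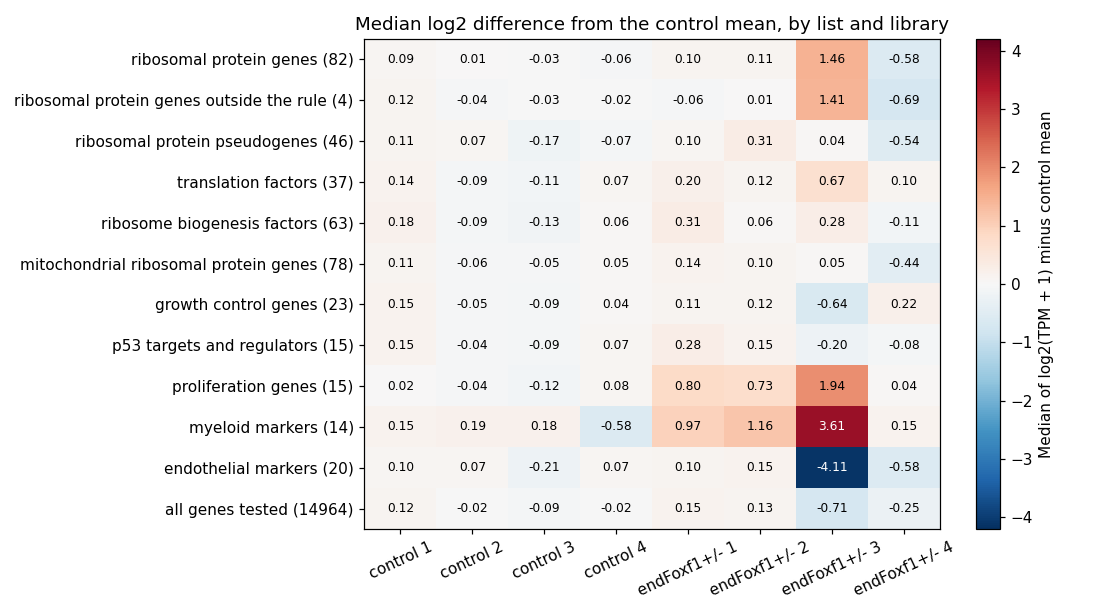
Median over each list of log2(TPM + 1) minus the control mean, for each library, with the number of genes tested in brackets and red above and blue below 0. In endFoxf1+/- 3 the cytosolic ribosomal protein genes are at 1.46, the mitochondrial ones at 0.05, the myeloid markers at 3.61 and the endothelial markers at -4.11.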

How the data were processed

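RNA-seq of CD45-CD31+ cells from 4 control and 4 endFoxf1+/- tumors was analysed, grouped by the sample labels. TPM per gene symbol, which the authors deposited for every sample and which sum to 1000000 in each, were used as given. The submitters' processing notes name TopHat, Cufflinks, Subread and DESeq2 with GRCm38 (mm10), with no role or version. TPM hold no read numbers, so depth is unknown, no count test or detection limit was possible, and precision rests on the spread between libraries.

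Genes with at least 1 TPM in at least 4 libraries (14964) were compared on log2(TPM + 1) with limma 3.58.1 in R 4.3.3 (eBayes with an intensity trend, Benjamini-Hochberg adjustment, threshold 0.05), in a fit without covariates that was tested on simulated data. A pseudocount of 1 understates changes of low genes. For Foxf1 the difference in mean log2(TPM + 1) was set against all 70 assignments of libraries (exact permutation test, two-sided). Coordinates, exons and lengths are from GENCODE vM21, promoter sequences from RefSeq (GRCm38.p6), and shared sequence is the share of a transcript's 50-base words found in another gene.

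The members were taken by symbol and not by their values, though this part and the gene lists were chosen with earlier results of these data known. Named members were the 7 paralogs and their parents, stalk and MDM2-binding proteins, Rpsa, Rps6, Rps19, Rps27a and Rps4x, the 5 highest and 5 lowest tested by mean TPM, those under the filter, the 5 largest log2 fold changes in each direction, members whose groups do not overlap, and those of largest and smallest control SD. From other lists, the 2 most abundant genes and the largest change in each direction could be named. Alternatives were pseudocounts of 0.1 and 5, no filter or 5 TPM, quantile and median-ratio normalization, rescaling without Gm20594 and mt- genes, no trend, array weights, each library left out and H3 and H4 left out. Centring on the members' median and restriction to protein coding members were added after seeing the data. Outside the symbol rule, 1 ribosomal protein gene besides the 4 listed is not reported here.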

Additional observations from a re-analysis of the deposited data

Results flagged for a closer look

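In 6 of the named members 1 endFoxf1+/- library lay far from the other 3, with a gap to the nearest of at least 0.838 of the group's range on the log2(TPM + 1) scale, beyond Dixon's 95% limit for 4 values. In each of them the library was H3 and the value the highest: Rps26 at 2449 TPM, Rpl26 at 2432 TPM, Rps7 at 2508 TPM, Rpl29 at 3345 TPM, Rpl22l1 at 986 TPM and Rplp0 at 1781 TPM. No control library was flagged. The named members and the summed share gave 72 groups of 4 to test, of which chance flags about 1 in 20, and the members are not independent of each other. For most other members the low value of H4 widened the range. In H3 the 20 endothelial markers were at 5.49% of their control mean and the 14 myeloid markers were above every control library, and the part of these cells in the 6 values was not tested.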

How the results depend on the processing

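No ribosomal protein gene had an adjusted p under 0.05 under any alternative run. Over all genes, 148 passed with array weights (which gave H3 a weight of 0.0643 and H4 0.178) and 2 without H3 and H4, and 0 to 1 with 1 library left out (1 without C1). Members at an unadjusted p under 0.05 numbered 7 with array weights (15.2% of all genes were then higher and 3.95% lower), 2 when centred on the members' median (0.608% and 1.89%) and 6 without H3 and H4 (9.94% and 2.28%). With 1 library left out they numbered 0 to 2. The 1 without H4 was higher, where 525 of 14751 genes were higher and 342 lower. For the 1 without H1 and the 2 without H2 the share over all genes is not given here. Members with a positive log2 fold change numbered 22 when centred and 22 to 81 with 1 library left out, the lowest without H3 and the highest without H4. Their median was -0.080 when centred and ranged from -0.13 without H3 to 0.54 without H4, and the difference in summed TPM from -0.976 percentage points without H3 to 6.91 without H4. For the rest of the alternatives these values kept their direction. No paired analysis was possible because the labels of the groups share no replicate numbers.

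Of 35 named members tested, none reversed with another pseudocount, filter or trend, or without any 1 control library. Reversed values were, with median-ratio scaling, Rpl11 0.16, Rpl37a 0.12, Rpl41 0.17, Rplp2 0.11, Rps27 0.061 and Rps29 0.022, with quantile normalization Rpl41 0.26 and Rps27 0.046, and without Gm20594 and mt- genes Rpl11 0.0021 and Rpl41 0.0092. With array weights they were Rpl11 0.13, Rps4l 0.46, Rps19 -0.058 and Rps27a -0.0026, and without H3 and H4 Rpl11 0.12, Rps4l 0.51, Rps19 -0.088 and Rps27a -0.019. Centred on the members' median they were Rpl13 -0.023, Rpl22 -0.20, Rpl23 -0.037, Rpl27 -0.20, Rpl27a -0.22, Rpl39 -0.037, Rpl7 -0.16, Rpl7l1 -0.16, Rplp1 -0.076, Rps27a -0.16, Rps27l -0.23, Rps4x -0.024 and Rps6 -0.082. With 1 library left out the sign depended on H3 in 13, on H4 in 6 and on H1 in 1, with ranges of Rpl11 -0.29 to 0.32, Rpl13 -0.39 to 0.98, Rpl22 -0.28 to 0.58, Rpl23 -0.055 to 0.63, Rpl27 -0.18 to 0.50, Rpl27a -0.23 to 0.50, Rpl37a -0.52 to 0.35, Rpl39 -0.15 to 0.62, Rpl41 -0.48 to 0.34, Rpl7 -0.12 to 0.47, Rplp1 -0.24 to 0.72, Rplp2 -0.54 to 0.37, Rps27 -0.49 to 0.12, Rps27a -0.14 to 0.39, Rps27l -0.070 to 0.27, Rps29 -0.55 to 0.13, Rps4l -1.04 to 0.15, Rps4x -0.089 to 0.74 and Rps6 -0.033 to 0.57. With read depth unknown, no detection limit could be given for the low paralogs.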

Other observations

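Among the pseudogene rows, Rpl3-ps1 was at 86.3 TPM in C1 but at 2.16, 0.790 and 1.17 TPM in C2 to C4, and at 165, 178, 62.6 and 70.5 TPM in H1 to H4 (log2 fold change 4.24 ± 1.11 SE, unadjusted p = 0.00382, adjusted p = 0.790 by limma). Over C1 to C4 its level did not follow that of Rpl3, at 660, 669, 699 and 649 TPM. In H1 to H4 Rpl3 was at 849, 772, 2103 and 562 TPM. Both were above every control library in H1 and H2, but not in H3 or H4. Of the 50-base words of Rpl3, 85.6% occurred in other genes, Rpl3-ps1 among them, so reads can be given to either row. Rpl3-ps1 had the largest log2 fold change of the 46 tested pseudogene rows. Of these rows, 3 were higher and 0 lower at an unadjusted p under 0.05 (2.82% and 2.77% of all genes tested). Besides Rpl3-ps1, the other 45 tested pseudogene rows included Rps2-ps11, at 1.17 to 3.09 TPM in controls. It was at 1.85, 2.15, 0.264 and 0 TPM in H1 to H4.

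The remaining lists gave these values. The 13 lymphocyte markers tested had a median log2 fold change of 0.69 (0.33 without H3 and 1.07 without H4), with 4 higher and 0 lower at an unadjusted p under 0.05. The 12 epithelial markers had -0.75 (-0.19 without H3 and -1.41 without H4), with none at that threshold in either direction. The 9 erythroid and platelet markers had -1.16 (-0.94 without H3 and -0.86 without H4), with 0 higher and 5 lower, and the 14 fibroblast and pericyte markers -0.12 (-0.10 without H3, -0.24 without H4 and 0.04 without both), with 4 higher and 3 lower. Over all genes tested 2.82% were higher and 2.77% lower. Of the lists named earlier, the 14 myeloid markers had 1.45 (0.73 without H3), with 3 higher and 0 lower. The 15 proliferation genes had 0.92 (0.55 without H3), with 8 higher and 0 lower. The 20 endothelial markers had -1.15 (-0.18 without H3), with 0 higher and 2 lower. No gene of all these lists passed adjustment in the main fit. With array weights 4 proliferation genes and 3 myeloid, 3 erythroid and platelet and 2 fibroblast and pericyte markers did. Without H3 and H4 1 myeloid marker did. Among the fibroblast and pericyte markers, Dcn was at 7.64 to 22.7 TPM in controls and 47.2, 36.6, 533 and 82.6 TPM in H1 to H4. Rgs5, a pericyte gene, was at 10.7 to 18.9 TPM and 3.71, 3.73, 0.602 and 6.66 TPM. Of 14 snoRNA host genes 1 was found in the files, Snhg11, at 170 to 268 TPM in controls and 201, 249, 51.5 and 56.5 TPM in H1 to H4.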
